A study of Mus musculus with 2 samples.

Results

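Serotonergic identity was read from 9 genes of the serotonin pathway, Tph2, Ddc, Gch1, Slc18a2, Slc6a4, Maoa, Maob, Fev and Lmx1b, among the 23912 genes counted. They were chosen by name, and all 9 have a row in both count tables. Their levels were compared within each library between nuclei with 5 or more Tph2 UMIs, called Tph2 nuclei here, and all other nuclei. A UMI (unique molecular identifier) marks 1 captured RNA molecule. Tph2 nuclei numbered 4 of 288 in the SNI with brush library and 31 of 425 in the Hot water bath library.

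The study sequenced nuclei of descending neurons, hindbrain neurons whose axons reach the lumbar spinal cord, from mice exposed to 2 kinds of pain. Both groups were TRAP2 mice 8 to 12 weeks old, a line with an inducible Cre at the Fos locus that can mark neurons active in a chosen time window, and in both the retrograde virus AAV-retro-H2B-GFP had been placed in the lumbar cord. One group had SNI with brush and the other a hot water bath. The hindbrain between about -7.3 and -5.2 mm from bregma was taken, hindbrains of 1 treatment were pooled, and sorted nuclei went into 1 droplet 3' library per treatment. The sources used here do not give how many mice were pooled or how the sort used the TRAP2 allele. With 1 library per treatment and nuclei that share a library, no test was made. All intervals are exact 95% intervals that cover counting error only, and ratios between libraries describe these libraries and not the treatments.

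Serotonin is made from tryptophan by tryptophan hydroxylase, encoded in brain neurons by Tph2, and then by the decarboxylase Ddc, and the first step needs tetrahydrobiopterin, whose synthesis starts with Gch1. Slc18a2 loads serotonin into vesicles, Slc6a4 takes it back up from outside the cell, and the monoamine oxidases Maoa and Maob degrade it. The transcription factors Fev (also called Pet1) and Lmx1b establish and maintain this gene set in the raphe nuclei of the brainstem, whose caudal groups project to the spinal cord and modulate pain.

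The promoter sequences below are those of Tph2, which chose the nuclei, of the 2 transporter genes Slc18a2 and Slc6a4, which were high in the same nuclei, and of Fev, a factor of the programme that had few UMIs, and they are shown so that their motifs can be compared. RefSeq windows of the 250 bases before a gene's start (build GRCm38.p6) were found for 8 of the 9 genes, and Maob is named only. Each is printed 5′ to 3′ on the gene's strand, and capitals mark a match, on either strand, to CGGAA (the core bound by ETS factors, the family of Fev), AGATAA (bound by GATA factors) or TAATTA (bound by many homeodomain factors, the family of Lmx1b). Tph2 lies at chr10:115185023-115185272 on the minus strand, Slc18a2 at chr19:59260628-59260877 on the plus strand, Slc6a4 at chr11:76998347-76998596 on the plus strand and Fev at chr1:74885409-74885658 on the minus strand.
Tph2: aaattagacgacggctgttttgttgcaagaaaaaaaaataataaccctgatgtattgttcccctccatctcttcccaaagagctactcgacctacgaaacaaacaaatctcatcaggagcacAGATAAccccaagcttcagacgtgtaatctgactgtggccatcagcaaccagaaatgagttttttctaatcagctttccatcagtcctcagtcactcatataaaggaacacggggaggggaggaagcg
Slc18a2: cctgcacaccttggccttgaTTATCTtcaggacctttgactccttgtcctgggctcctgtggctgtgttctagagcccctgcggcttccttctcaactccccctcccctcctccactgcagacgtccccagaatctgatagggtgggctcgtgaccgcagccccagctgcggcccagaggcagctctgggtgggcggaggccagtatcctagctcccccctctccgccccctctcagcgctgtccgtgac
Slc6a4: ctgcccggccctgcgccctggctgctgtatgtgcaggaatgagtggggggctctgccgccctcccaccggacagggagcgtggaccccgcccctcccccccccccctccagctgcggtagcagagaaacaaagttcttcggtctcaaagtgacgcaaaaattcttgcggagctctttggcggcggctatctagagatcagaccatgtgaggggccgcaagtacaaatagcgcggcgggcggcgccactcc
Fev: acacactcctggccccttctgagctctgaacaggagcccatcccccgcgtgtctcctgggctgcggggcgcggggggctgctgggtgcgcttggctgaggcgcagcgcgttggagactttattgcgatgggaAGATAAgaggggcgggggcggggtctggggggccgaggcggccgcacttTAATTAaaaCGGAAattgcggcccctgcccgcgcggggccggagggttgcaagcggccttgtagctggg

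The Tph2 window holds AGATAA with its first base 128 bases before the start, and the Slc18a2 window holds it 230 bases before the start. The Fev window holds AGATAA at 118, TAATTA at 69 and CGGAA at 60 bases before the start, with no overlap between them, and the Slc6a4 window holds none of the 3 motifs. Of 32536 different RefSeq windows of this length, 25.3% hold CGGAA, 9.97% hold AGATAA and 4.84% hold TAATTA. Among the 9 windows of the 8 genes (Ddc has 2 starts), 2 hold CGGAA, 3 hold AGATAA and 1 holds TAATTA. These matches are a description of the sequence, and binding was not measured.

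The SNI with brush library held 11298755 UMIs with a median of 32852.5 per nucleus, and the Hot water bath library 16344606 with a median of 36962. No barcode occurs in both count tables. All Tph2 nuclei had UMIs of the neuronal genes Snap25 and Rbfox3. In the SNI with brush library 18 other nuclei, and no Tph2 nucleus, had over 0.1% of their UMIs from 8 hepatocyte markers (called hepatocyte-marker nuclei here), and no Hot water bath nucleus did. These 18 nuclei held 145 of the 229 Ddc UMIs, 60 of the 75 Gch1 UMIs and 53 of the 83 Maob UMIs of the other SNI with brush nuclei, so the levels of these genes are also given without them.

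The cut on Tph2 took a small set of nuclei in both libraries. Tph2 nuclei made up 1.39% of the SNI with brush nuclei (interval 0.380 to 3.52%) and 7.29% of the Hot water bath nuclei (5.01 to 10.2%). The 4 SNI with brush nuclei had 7, 82, 93 and 111 Tph2 UMIs. The 31 Hot water bath nuclei had between 5 and 166 Tph2 UMIs with a median of 57, and 5 of them had under 20. Just outside the threshold, the highest counts were 2 UMIs in the SNI with brush library and 3, then 2, in the Hot water bath library, and 265 SNI with brush and 376 Hot water bath nuclei had no Tph2 UMI. The Hot water bath nucleus with 3 Tph2 UMIs had 25 Ddc, 36 Slc18a2, 12 Lmx1b and 26 Gad2 UMIs. Inside the set, a Hot water bath nucleus with 5 Tph2 UMIs had 2 Ddc, 4 Slc18a2 and no Lmx1b, Maob or Slc6a4 UMIs. It also had 15 Gad2, 9 Gad1 and 6 Slc32a1 UMIs. Median depth was 40900 UMIs in Tph2 nuclei against 32802.5 in other nuclei of the SNI with brush library, and 40555 against 36545.5 in the Hot water bath library.

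Every one of the 7 other members that could be counted was higher in Tph2 nuclei than in the other nuclei of the same library. A gene was called higher at a ratio of at least 2-fold, with 0.5 UMI added to both sides, where it had at least 20 UMIs in the library; Fev had fewer, and Tph2 chose the nuclei. By this rule 7 of 7 members were called in the SNI with brush library, where 15.2% of all genes were, and 7 of 7 in the Hot water bath library, where 7.15% were. The median log2 ratio of the 7 members was 5.30 in the SNI with brush library, against 0.08 over all genes with at least 20 UMIs, and 5.44 in the Hot water bath library, against -0.13. With each nucleus weighted equally (the mean of per-nucleus CPM), the SNI with brush log2 ratios were lower, at 5.48 for Ddc, 4.35 for Gch1, 8.64 for Slc6a4 and 1.13 for Maoa, against the 6.37, 5.05, 9.41 and 1.75 given below, and the Hot water bath ratio of Slc6a4 was 11.04 against 10.11. With 10 Tph2 UMIs as the threshold, the Slc6a4 ratio in the SNI with brush library was 8.38.

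**Figure D1:**
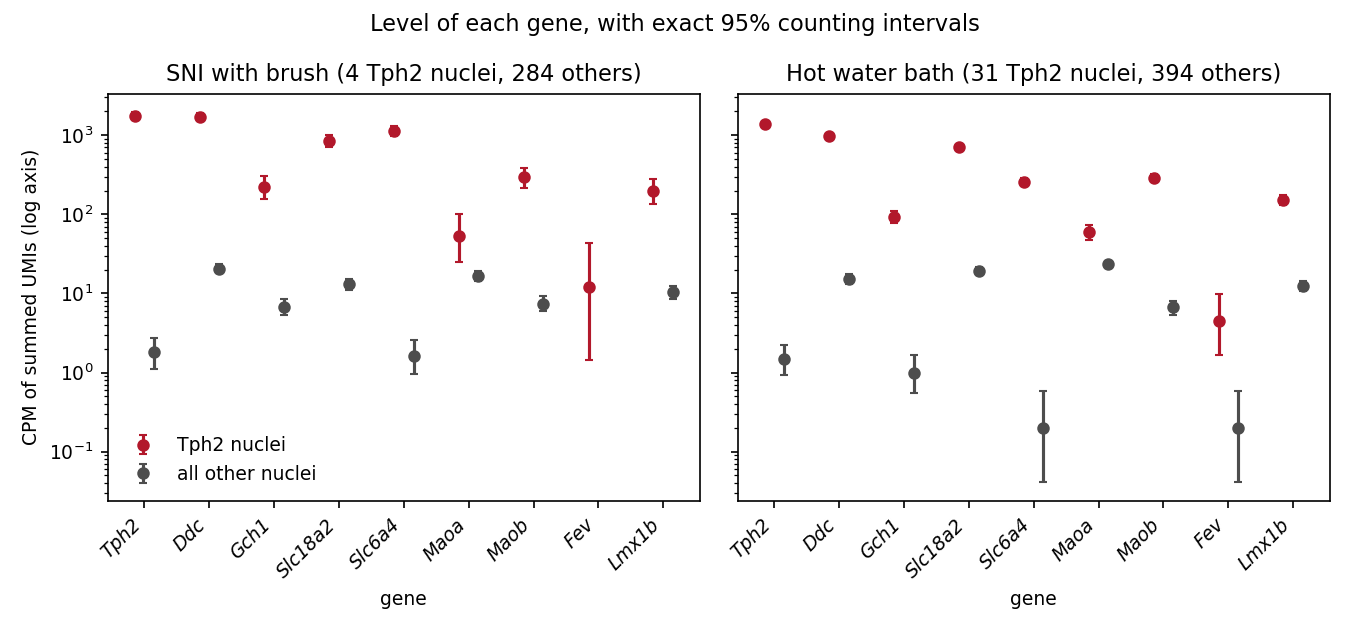
Level of the 9 genes in CPM (UMIs of the gene per 1000000 UMIs of the summed nuclei, log axis) in Tph2 nuclei (red) and all other nuclei (grey) of the SNI with brush library (left) and the Hot water bath library (right), with exact 95% counting intervals; Fev had no UMI in the other SNI with brush nuclei, so no point is drawn there. Slc6a4 stood at 1125 against 1.62 CPM in the SNI with brush library and 257 against 0.200 CPM in the Hot water bath library, whereas Maoa stood at 53.9 against 16.8 CPM among SNI with brush nuclei and 59.3 against 23.3 CPM among Hot water bath nuclei.

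Among the synthesis genes, Tph2 (ENSMUSG00000006764, chr10:115078641-115185022 in mm10, minus strand), the measure that chose the nuclei, stood at 1753 CPM in Tph2 nuclei and 1.80 CPM in other nuclei of the SNI with brush library, and at 1406 and 1.47 CPM in the Hot water bath library. Ddc (ENSMUSG00000020182, chr11:11814101-11898144, minus strand), the decarboxylase that completes serotonin synthesis, had 8, 58, 46 and 172 UMIs in the 4 SNI with brush Tph2 nuclei, in order of rising Tph2. In the Hot water bath Tph2 nuclei it had 2 to 72 UMIs with a median of 40, so all 35 Tph2 nuclei held it. Its level was 1700 CPM in Tph2 nuclei and 20.6 CPM in other nuclei of the SNI with brush library, a log2 ratio of 6.37 (6.11 to 6.63), or 7.74 (7.39 to 8.12) without the hepatocyte-marker nuclei. The Hot water bath library gave 968 and 15.3 CPM, a ratio of 5.99 (5.78 to 6.20).

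Gch1 (ENSMUSG00000037580, chr14:47153895-47189413, minus strand), GTP cyclohydrolase, had 1, 0, 14 and 22 UMIs in the SNI with brush Tph2 nuclei. In the Hot water bath Tph2 nuclei it had 0 to 14 UMIs with a median of 3 and was seen in 29 of 31, so it was both thinly counted and nearly always present. Its level was 221 CPM in Tph2 nuclei and 6.74 CPM in other nuclei of the SNI with brush library, a log2 ratio of 5.05 (4.43 to 5.62), or 7.26 (6.39 to 8.26) without the hepatocyte-marker nuclei. The Hot water bath values were 93.8 and 1.0 CPM, a log2 ratio of 6.51 (5.77 to 7.43). Of the 5 further tetrahydrobiopterin genes, 1 was called higher among SNI with brush nuclei, where 15.2% of all genes were. Hot water bath nuclei also gave 1, where 7.15% of all genes were. Both times it was Gchfr, the feedback regulator of GTP cyclohydrolase. Its level was 95.7 against 1.44 CPM among SNI with brush nuclei and 31.5 against 0.666 CPM among Hot water bath nuclei. Pts, Spr and Pcbd1, which act in making or regenerating the cofactor, lay between -0.20 and 0.66 in log2 ratio in both libraries, with intervals that include 0. Qdpr, which regenerates the cofactor, lay just under the threshold among SNI with brush nuclei, at 1.00 (-0.22 to 1.87, on 9 UMIs), and at -0.15 (-1.06 to 0.57) in the Hot water bath library.

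Slc18a2 (ENSMUSG00000025094, chr19:59260896-59296012, plus strand), the vesicular monoamine transporter VMAT2, had 18, 42, 35 and 47 UMIs in the SNI with brush Tph2 nuclei and 4 to 67 with a median of 27 in the Hot water bath Tph2 nuclei. It was thus seen in all 35. Its level was 850 CPM in Tph2 nuclei and 13.0 CPM in other nuclei of the SNI with brush library, a log2 ratio of 6.03 (5.68 to 6.37). Hot water bath nuclei had 708 and 19.3 CPM, for a log2 ratio of 5.19 (5.01 to 5.39).

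Slc6a4 (ENSMUSG00000020838, chr11:76998603-77032340, plus strand), the serotonin transporter, divided the Tph2 nuclei. It had 19, 24, 82 and 63 UMIs in the 4 SNI with brush nuclei, whereas in the Hot water bath library it ranged from 0 to 42 UMIs and was seen in 17 of 31 nuclei (54.8%, 36.0 to 72.7%). Its level was 1125 CPM in Tph2 nuclei and 1.62 CPM in other nuclei of the SNI with brush library, a log2 ratio of 9.41 (8.74 to 10.23). With 342 against 3 UMIs, the Hot water bath levels were 257 and 0.200 CPM and the log2 ratio 10.11 (8.77 to 12.61).

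The degrading enzymes differed from each other. Maob (ENSMUSG00000040147, chrX:16709282-16817366, minus strand) had 3, 11, 12 and 23 UMIs in the SNI with brush Tph2 nuclei and 0 to 47 with a median of 8 in the Hot water bath ones, of which 28 of 31 held it. Its log2 ratio was 5.30 (4.76 to 5.82) in the SNI with brush library, at 293 against 7.46 CPM, and 5.44 (5.12 to 5.77) in the Hot water bath library, at 290 against 6.66 CPM. Without the hepatocyte-marker nuclei the SNI with brush ratio was 6.69 (6.01 to 7.40). Maoa (ENSMUSG00000025037, chrX:16619698-16687818, plus strand) had 0, 1, 2 and 6 UMIs in the SNI with brush Tph2 nuclei and 0 to 13 with a median of 2 in the Hot water bath ones. Its log2 ratio was 1.75 (0.53 to 2.64) in the SNI with brush library, at 53.9 against 16.8 CPM, and 1.35 (0.97 to 1.70) in the Hot water bath library, at 59.3 against 23.3 CPM. These were the lowest of the 7 members in both libraries. A Maoa UMI was held by 3 of 4 Tph2 and 112 of 284 other SNI with brush nuclei, and by 24 of 31 Tph2 and 186 of 394 other Hot water bath nuclei.

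Of the transcription factors, Lmx1b (ENSMUSG00000038765, chr2:33560965-33640511, minus strand) had 1, 11, 7 and 14 UMIs in the SNI with brush Tph2 nuclei and 0 to 13 with a median of 7 in the Hot water bath ones, of which 29 of 31 held it. Its log2 ratio was 4.27 (3.65 to 4.83) in the SNI with brush library, at 197 against 10.3 CPM, and 3.60 (3.30 to 3.89) in the Hot water bath library, at 152 against 12.6 CPM. Fev (ENSMUSG00000055197, chr1:74881509-74885419, minus strand) was nearly absent from the counts, with 2 UMIs in Tph2 nuclei and 0 in others of the SNI with brush library, and 6 and 3 in the Hot water bath library. It was seen in 2 of 4 SNI with brush and 4 of 31 Hot water bath Tph2 nuclei. A count of 0 in the other SNI with brush nuclei allows up to 0.270 CPM. On its 9 UMIs in the Hot water bath library its log2 ratio was 4.39 (2.27 to 7.12).

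The nuclei outside the set held some members far more than others. Relative to the level in Tph2 nuclei, the level in all other nuclei was 0.102% for Tph2 and 0.144% for Slc6a4 in the SNI with brush library, and 0.104% and 0.0779% in the Hot water bath library. That value in the SNI with brush library was 1.53% for Slc18a2, 5.23% for Lmx1b and 31.2% for Maoa, and in the Hot water bath library 2.73%, 8.27% and 39.3%. The Tph2 percentage is limited by the rule that chose the nuclei, and the part of free RNA in these levels was not tested. Tph2 was seen in 6.69% of other SNI with brush nuclei (19, of which 18 had a single UMI) and 4.57% of other Hot water bath nuclei (18, of which 15 had a single UMI). These shares are limited by the same rule and give no background for the other genes. Lmx1b reached 10 UMIs in 1 other SNI with brush nucleus and 20 in 1 Hot water bath nucleus, neither of which held Tph2 or Slc6a4.

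The other members were seen together in the Tph2 nuclei. Of the 8 members other than Tph2, each of the 4 SNI with brush Tph2 nuclei held 7, and the 31 Hot water bath ones held 3 to 8 with a median of 6. Other nuclei held a median of 1 in both libraries, hepatocyte-marker nuclei left out. At least 5 members were seen in 4 of 4 Tph2 and 2 of 266 other SNI with brush nuclei, and in 30 of 31 Tph2 and 1 of 394 other Hot water bath nuclei. Ddc, Slc18a2, Maob and Lmx1b were seen together in 4 of 4 SNI with brush and 27 of 31 Hot water bath Tph2 nuclei. With each nucleus thinned to 5000 UMIs, the median was 5.5 in SNI with brush Tph2 nuclei, 4 in Hot water bath ones and 0 in the other nuclei of both libraries. A choice of nuclei without Tph2, by at least 10 UMIs summed over Slc6a4, Slc18a2, Ddc and Fev, gave 10 SNI with brush nuclei (3.47%) and 34 Hot water bath nuclei (8.0%). Of the 10 SNI with brush nuclei, 4 were the Tph2 nuclei and the other 6 were hepatocyte-marker nuclei with no Tph2 UMI. Of the 34 Hot water bath nuclei, 30 were Tph2 nuclei, and 3 of the other 4 had no Tph2 UMI.

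**Figure D2:**
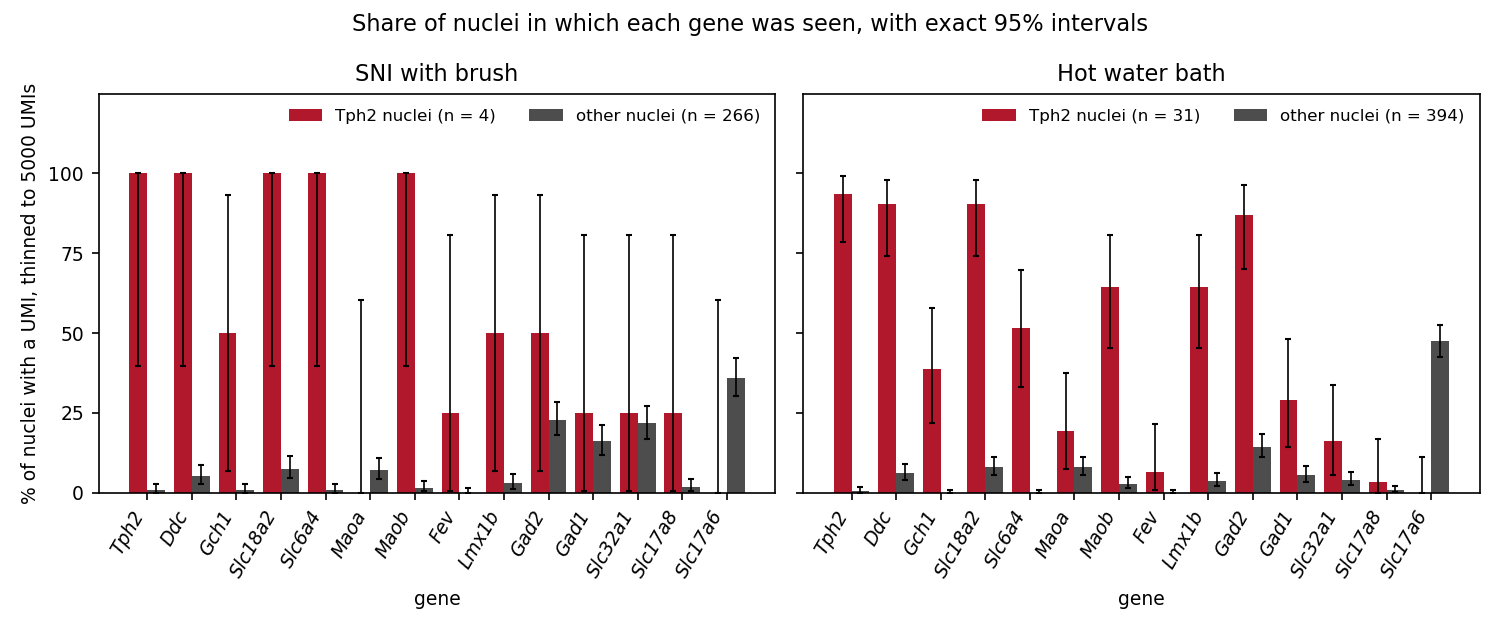
Percent of nuclei with at least 1 UMI of each gene after thinning every nucleus to 5000 UMIs, in Tph2 nuclei (red) and in other nuclei without hepatocyte-marker nuclei (grey) of the SNI with brush library (left) and the Hot water bath library (right), with exact 95% intervals. In the Hot water bath library Ddc was seen in 90.3% against 6.09%, Slc6a4 in 51.6% against 0% and Slc17a6 in 0% against 47.5%.

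The division by Slc6a4 was about as wide at equal depth. After thinning to 5000 UMIs, Slc6a4 was seen in 4 of 4 Tph2 and 2 of 266 other SNI with brush nuclei, and in 16 of 31 Tph2 (51.6%, 33.1 to 69.8%) and 0 of 394 other Hot water bath nuclei. Among the SNI with brush Tph2 nuclei, the same thinning left Gch1 in 2, Maob in 4 and Lmx1b in 2 of the 4. Among the Hot water bath ones it left Gch1 in 12, Maob in 20 and Lmx1b in 20 of the 31. Maoa was left in 0 of 4 Tph2 and 19 of 266 other SNI with brush nuclei, and in 6 of 31 Tph2 and 32 of 394 other Hot water bath nuclei.

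Among the 31 Hot water bath Tph2 nuclei, those with Slc6a4 held more of the synthesis and vesicle genes. The 17 nuclei with Slc6a4 had 1983 CPM of Tph2, 1284 of Ddc, 899 of Slc18a2, 126 of Gch1, 154 of Lmx1b and 299 of Gad2. The 14 without it had 813 CPM of Tph2, 644 of Ddc, 512 of Slc18a2, 60.8 of Gch1, 150.4 of Lmx1b and 362 of Gad2. Median depth was 39556 UMIs in the nuclei with Slc6a4 and 42432.5 in those without. All 5 nuclei under 20 Tph2 UMIs lacked Slc6a4, as did 9 of the 26 with 20 or more, so the sets overlap in Tph2, at 31 to 166 UMIs with Slc6a4 and 5 to 140 without.

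Across these 31 nuclei, in the log of 1 + UMIs per 10000, Tph2 went with Ddc (Pearson r = 0.76, Spearman rho = 0.66), Slc18a2 (0.69 and 0.67), Slc6a4 (0.66 and 0.71), Gch1 (0.49 and 0.48) and Maob (0.45 and 0.39). It had an r of 0.17 with Maoa, 0.08 with Lmx1b and -0.36 with the log of the nucleus's total UMIs. The nuclei share a library and a threshold on Tph2, so these values are a description. The coefficient of variation of UMIs per 10000 was 70.2% for Tph2, 51.8% for Ddc, 44.1% for Slc18a2, 48.9% for Lmx1b and 137% for Slc6a4.

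**Figure D3:**
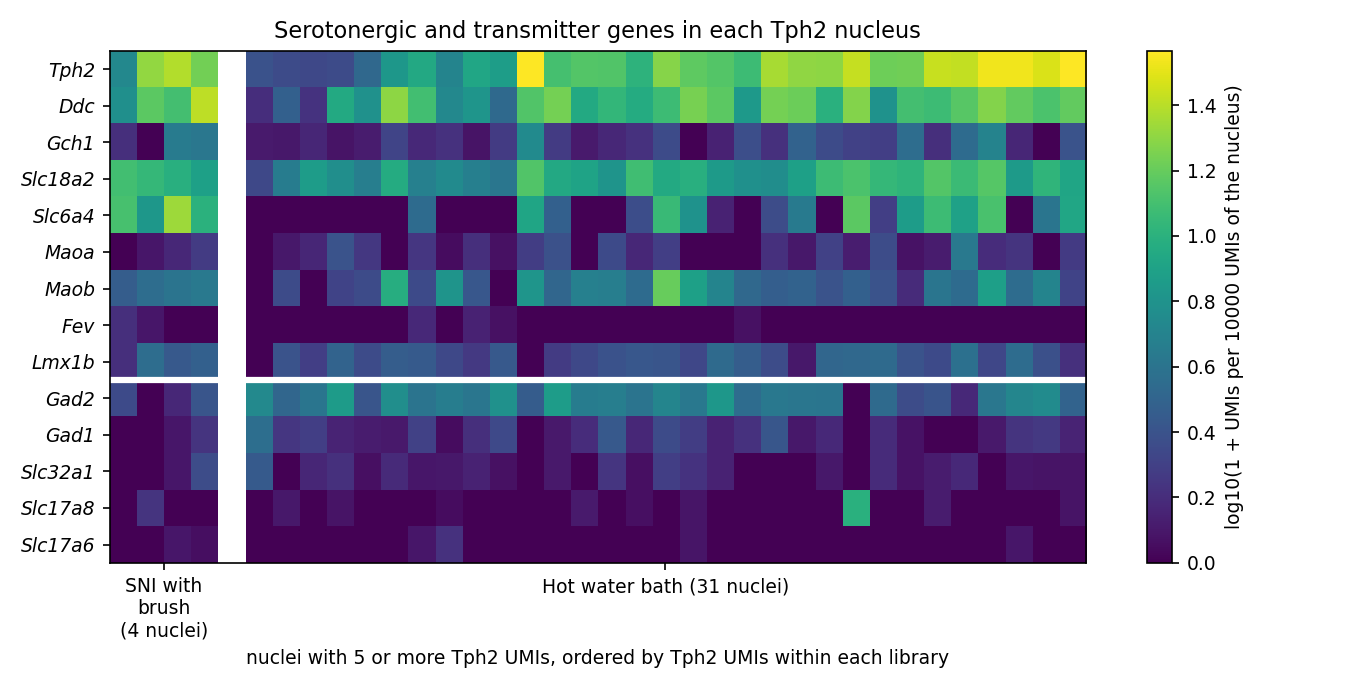
Each column is 1 Tph2 nucleus, the 4 of the SNI with brush library at the left and the 31 of the Hot water bath library at the right, ordered by Tph2 UMIs within each; rows are the 9 serotonergic genes and 5 transmitter genes, and colour is log10 of 1 + UMIs per 10000. Ddc and Slc18a2 are present in every column and Slc6a4 in 4 of 4 SNI with brush and 17 of 31 Hot water bath columns, and 1 Hot water bath column with 26 Slc17a8 UMIs has no Gad2.

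The Tph2 nuclei also held transmitter genes, mainly of GABA synthesis. Gad2, a GABA-synthesizing enzyme, had 2, 0, 2 and 11 UMIs in the SNI with brush Tph2 nuclei. It was seen in 30 of 31 Hot water bath ones (96.8%, 83.3 to 99.9%), with 0 to 30 UMIs and a median of 13. Of the other nuclei, 51.1% of SNI with brush ones (hepatocyte-marker nuclei left out) and 26.1% of Hot water bath ones held Gad2. In the SNI with brush library Gad2 stood at 89.8 CPM in Tph2 nuclei and 77.6 CPM in other nuclei, a log2 ratio of 0.26 (-0.63 to 0.94). Its log2 ratio in the Hot water bath library was 2.69 (2.51 to 2.86), from 330 CPM in Tph2 nuclei and 51.3 CPM in others. The SNI with brush Tph2 nuclei reached at most 1.58 Gad2 UMIs per 10000, and 27 of the 31 Hot water bath ones lay above that.

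Of the 6 GABA and glycine genes, 0 were called higher and 2 lower in the SNI with brush library, where 15.2% and 16.3% of all genes were. In the Hot water bath library 3 were called higher and 1 lower, where 7.15% and 14.5% of all genes were. The 3 were Gad2, Gad1, the other synthesizing enzyme, at 63.8 against 14.3 CPM (2.16, 1.77 to 2.52), and Slc32a1, the vesicular inhibitory transmitter transporter, at 33.0 against 9.99 CPM (1.74, 1.20 to 2.22). In the SNI with brush library Gad1 had 35.9 against 39.5 CPM and Slc32a1 59.8 against 48.2 CPM, and their intervals include equality. Each was seen in 2 of the 4 Tph2 nuclei there, with 83.3% of the Gad1 and 90% of the Slc32a1 UMIs in 1 nucleus. The glycine transporter Slc6a5 had 0 UMIs in SNI with brush Tph2 nuclei and 882 in other nuclei, at least 4.41-fold lower with 3 UMIs as the limit over the group. The Hot water bath counts were 3 and 181 UMIs, a log2 ratio of -2.20 (-4.71 to -0.85).

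Glutamate transporter genes were low in Tph2 nuclei with a single exception. Slc17a6, the vesicular transporter of most hindbrain glutamatergic neurons, had 2 UMIs at 12.0 CPM in SNI with brush Tph2 nuclei against 118 CPM in other nuclei, a log2 ratio of -2.98 (-6.35 to -1.45). Hot water bath Tph2 nuclei had 8 UMIs of it at 6.0 CPM against 131 CPM, a log2 ratio of -4.36 (-5.66 to -3.47). Slc17a8, which encodes VGLUT3, had 3 UMIs in 1 of the 4 SNI with brush Tph2 nuclei and 34 UMIs in 9 of the 31 Hot water bath ones, at 25.5 against 1.33 CPM in the Hot water bath library (4.24, 3.42 to 5.13). Of those 34 UMIs, 26 lay in 1 nucleus, which had 76 Tph2, 41 Slc6a4, 36 Slc18a2 and no Gad2 or Gad1 UMIs. The SNI with brush nucleus with Slc17a8 had no Gad2 or Gad1 either. Slc17a7 had 0 UMIs in both sets, and the 3 acetylcholine genes summed to 0 UMIs in SNI with brush Tph2 nuclei and 2 in Hot water bath ones.

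**Figure D4:**
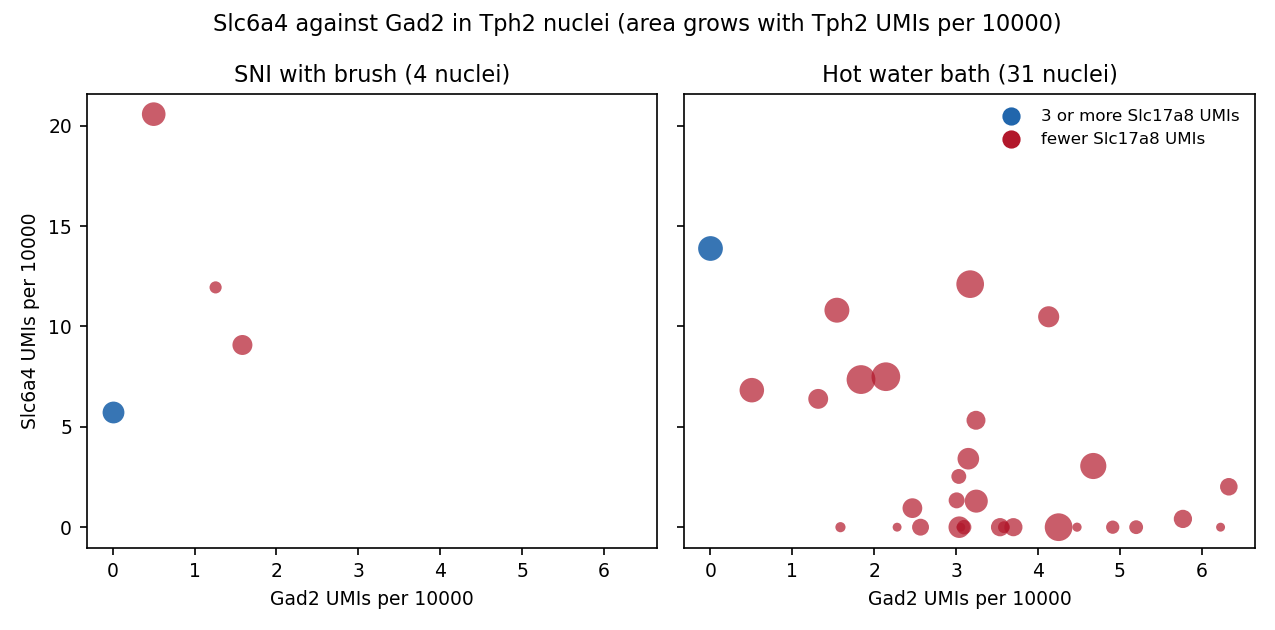
Slc6a4 against Gad2, both in UMIs per 10000, in the 4 SNI with brush Tph2 nuclei (left) and the 31 Hot water bath ones (right); the area of a point grows with its Tph2 and blue points have 3 or more Slc17a8 UMIs. The 14 Hot water bath nuclei without Slc6a4 lie along the bottom, and 1 blue point in each library has no Gad2.

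Gad2 and Slc6a4 were seen together in 3 of 4 SNI with brush and 16 of 31 Hot water bath Tph2 nuclei. All 14 Hot water bath nuclei without Slc6a4 had Gad2, with 9 to 30 UMIs. Over the 31 nuclei Slc6a4 and Gad2 had a Pearson r of -0.51 and a Spearman rho of -0.41. No Tph2 nucleus of either library lacked both the Gad genes and the vesicular glutamate transporters.

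The list of 10 serotonergic lineage factors had few UMIs apart from Gata2 and Gata3. Gata2, which acts upstream of the serotonergic programme in the embryo, stood at 41.9 against 3.32 CPM in the SNI with brush library (3.74, 2.25 to 4.84) and 30.8 against 0.733 CPM in the Hot water bath library (5.34, 4.41 to 6.50). Gata3, its paralogue, stood at 168 against 8.80 CPM (4.27, 3.59 to 4.87) in the SNI with brush library and 38.3 against 2.26 CPM (4.07, 3.42 to 4.75) in the Hot water bath library. Over the list, 3 of 4 SNI with brush genes and 3 of 3 Hot water bath genes with enough UMIs were called higher, where 15.2% of all SNI with brush and 7.15% of all Hot water bath genes were. The other called genes were En1 in the SNI with brush library, on 2 UMIs, and Nkx2-2 in the Hot water bath library, on 7 UMIs.

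The SNI with brush library gave 3 of the 3 serotonin autoreceptor genes as higher, where 15.2% of all genes were, and the Hot water bath library 2, where 7.15% were. Htr1b, a receptor of serotonergic terminals, was seen in 3 of 4 SNI with brush Tph2 nuclei, at 59.8 against 11.8 CPM (2.41, 1.25 to 3.27), and in 31 of 31 Hot water bath ones, at 91.5 against 11.5 CPM (3.0, 2.65 to 3.34). Htr1a, the receptor of serotonergic cell bodies, had 1 UMI in SNI with brush Tph2 nuclei, at 5.98 against 2.07 CPM (2.09, -3.83 to 4.16), so that call rests on 1 molecule, and 9 in Hot water bath ones, at 6.75 against 0.933 CPM (2.88, 1.47 to 4.17). Htr1d had a log2 ratio of 3.95 (2.81 to 4.87) in the SNI with brush library and 0.57 (-0.06 to 1.11) in the Hot water bath library.

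Among the genes of other monoamine systems, 2 of 4 with enough UMIs were called higher among SNI with brush nuclei, Th on 1 UMI and Slc22a3, where 15.2% of all genes were, and 1 of 4 among Hot water bath nuclei, Slc22a3, where 7.15% were. This low-affinity monoamine transporter had 7 to 12 UMIs in each of the 4 SNI with brush Tph2 nuclei, at 215 against 0.988 CPM (7.72, 6.76 to 8.89). Of the Hot water bath Tph2 nuclei, 6 of 31 held it, at 14.3 against 1.40 CPM (3.35, 2.37 to 4.32), and 30 of the 31 lay below the lowest SNI with brush Tph2 nucleus in UMIs per 10000. Th, which makes dopamine and noradrenaline precursors, had 1 UMI in SNI with brush and 2 in Hot water bath Tph2 nuclei, and Dbh, Slc6a2 and Slc6a3 had 0 in both. The noradrenergic list summed to 5.98 against 6.83 CPM in the SNI with brush library and to 1.5 against 3.0 CPM in the Hot water bath library.

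Peptide genes were mostly low. Of the 20 listed, 14 had no UMI in the 4 SNI with brush Tph2 nuclei and 9 had none in the 31 Hot water bath ones. In each library 1 was called higher, where 15.2% of all SNI with brush genes and 7.15% of all Hot water bath genes were. With enough UMIs, 11 of 17 were called lower in the SNI with brush library, where 16.3% of all genes were, and 8 of 15 in the Hot water bath library, where 14.5% were. A count of 0 in the SNI with brush Tph2 nuclei allows up to 18.0 CPM. Of the genes called lower there, Pnoc, Gal, Crh, Calca, Nts, Adcyap1 and Gcg had no UMI in Tph2 nuclei and at most 16.2 CPM in other nuclei. These calls therefore cannot be told from equality. The gene called higher was Tac1, the substance P precursor, in the SNI with brush library, with 22, 0, 4 and 0 UMIs. The Hot water bath one was Sst, the somatostatin precursor, seen in 23 of 31 nuclei at 78.0 against 17.6 CPM (2.15, 1.81 to 2.48). Penk, the enkephalin precursor, had 2 UMIs in SNI with brush Tph2 nuclei, at 12.0 against 37.5 CPM, and 19 in Hot water bath ones, at 14.3 against 23.3 CPM. The 13 Hox genes measured from groups 4 to 8, whose expression lies in caudal hindbrain and spinal cord, summed to 18.0 CPM in Tph2 nuclei against 80.0 CPM in other nuclei of the SNI with brush library, on 3 UMIs in Tph2 nuclei, and to 5.25 against 28.4 CPM in the Hot water bath library, on 7 UMIs. Of those with enough UMIs, 3 of 10 were called lower in the SNI with brush library, where 16.3% of all genes were, and 4 of 6 in the Hot water bath library, where 14.5% were. In the SNI with brush Tph2 nuclei 11 of the 13 had no UMI, so the calls there rest on few molecules.

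Of the markers of other cell types, those of hepatocytes had a lower sum in Tph2 nuclei than in other nuclei of the SNI with brush library, and the sums of glial markers were lower or higher by list and library. Hepatocyte markers summed to 35.9 CPM in Tph2 nuclei and 567 CPM in other nuclei of the SNI with brush library, with 6 of the 8 at 0. Those other nuclei include the 18 hepatocyte-marker nuclei, which these markers set apart. The Hot water bath sums were 0.750 and 1.20 CPM, with 7 of 8 at 0 in Tph2 nuclei. They rest on 1 and 18 UMIs, too few to show a difference. In the SNI with brush library, oligodendrocyte markers summed to 251 CPM in Tph2 nuclei against 186 CPM in others, astrocyte markers to 47.9 against 70.1 CPM and microglial markers to 65.8 against 74.4 CPM. The Hot water bath sums were 73.5 against 78.5 CPM, 8.25 against 23.1 CPM and 90.0 against 74.1 CPM for the same lists. The 3 oligodendrocyte precursor markers summed to 5.98 against 5.93 CPM in the SNI with brush library and 25.5 against 4.46 CPM in the Hot water bath library, where 33 of the 34 UMIs were of C1ql1 (2.57, 1.91 to 3.19), Cspg4 had 1 and Pdgfra was at 0. The 4 endothelial markers summed to 5.98 against 7.82 CPM in the SNI with brush library and 3.0 against 3.26 CPM in the Hot water bath library. Their part in the members' levels was not tested. Scrublet called 2 doublets in the SNI with brush library and 3 in the Hot water bath library, of which 0 SNI with brush and 1 Hot water bath were Tph2 nuclei.

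Genes outside the lists were named from the Hot water bath library by a fixed rule of size, and the SNI with brush library, which the rule did not use, gives a second reading. The 15 with the highest ratios lay between 3.21 and 4.44 in log2 in the Hot water bath library. In the SNI with brush library 15 of 15 had a positive ratio, with a median of 2.56. There 14 of 15 were called higher, where 15.2% of all genes were. Among the 14, Plekhg1 was called on 3 UMIs, with an interval that includes equality (-1.20 to 2.70). Stard13, a GTPase-activating protein, had 616 against 40.0 CPM in the SNI with brush library (3.95, 3.62 to 4.26) and 308 against 18.7 CPM in the Hot water bath library (4.04, 3.82 to 4.26). Pappa2, a protease of insulin-like growth factor binding proteins, had a log2 ratio of 4.83 (4.28 to 5.34) in the SNI with brush library and 3.52 (3.14 to 3.90) in the Hot water bath library. Ptger3, a prostaglandin E2 receptor, had 2.99 (1.38 to 4.10) in the SNI with brush library and 3.30 (2.78 to 3.81) in the Hot water bath library. Cpa6, a carboxypeptidase, had 2.26 (1.59 to 2.82) in SNI with brush and 3.77 (3.66 to 3.88) in Hot water bath nuclei.

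The log2 ratios of the other genes in the SNI with brush library were 4.27 for Vwa5b1, 4.02 for Gucy2f, a guanylate cyclase, 3.30 for Fmnl3, a formin, 2.71 for Zbtb7c, 2.56 for Smad3, a transducer of TGF-beta signals, and 2.15 for Tns3, a tensin. Scn7a, a sodium channel gene, had 1.88 there, the nuclear factor gene Tox 1.84, Mgll, which degrades the endocannabinoid 2-arachidonoylglycerol, 1.70 and Plekhg1 1.32. Their Hot water bath ratios were 3.48 for Vwa5b1, 3.87 for Gucy2f, 4.37 for Fmnl3, 3.66 for Zbtb7c, 4.25 for Smad3, 3.95 for Tns3, 3.24 for Scn7a, 3.89 for Tox, 3.21 for Mgll and 4.44 for Plekhg1. Nek11 had 0.18 (-5.72 to 2.11) on 1 UMI in the SNI with brush library and 3.30 in the Hot water bath library. Several other SNI with brush ratios also rest on few molecules. Plekhg1 had 3 UMIs in the Tph2 nuclei there, Fmnl3 and Gucy2f 4 each, Tns3 7 and Scn7a 8. Smad3 had 11 UMIs, all in 2 of these nuclei.

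For the 10 genes with the lowest Hot water bath ratios, 9 of 10 had a negative ratio in the SNI with brush library and 6 of 10 were called lower, where 16.3% of all genes were, with a median of -1.65. They included Lgr5, a receptor for R-spondins, with 0 UMIs in Tph2 nuclei against 639 in other nuclei of the SNI with brush library, at least 3.20-fold lower, and 0 against 829 in the Hot water bath library, at least 24.5-fold lower. Plpp4 had 0 against 611 UMIs in the SNI with brush library, at least 3.06-fold lower, and 0 against 476 in the Hot water bath library, at least 14.1-fold lower. Zmat4 had -2.92 (-4.68 to -1.83) in the SNI with brush library and -5.63 (-7.39 to -4.55) in the Hot water bath library. Among the SNI with brush Tph2 nuclei, Prkd1 had 4 UMIs, a log2 ratio of -0.05 (-2.10 to 1.15), Serpine2 had 2 (-0.30, -3.68 to 1.25) and Svep1 had 2, with a positive ratio (1.56, -1.83 to 3.17). Syt17 had 1 there (-1.31, -7.20 to 0.60). Pou3f2 and Kcnip3 had 0 there, with log2 intervals that reach 0.92 and 0.34. Syt17, Pou3f2 and Kcnip3 were thus among the genes called lower in the SNI with brush library, though their intervals include equality. In the 31 Hot water bath Tph2 nuclei Syt17 had 1 and the other 5 had 0.

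Over all 425 Hot water bath nuclei, ranked by Pearson r with Tph2 among 11072 genes, Ddc was first (0.90), Slc18a2 the third (0.89), Gch1 the fifth (0.84), Maob the sixth (0.83) and Slc6a4 the seventh (0.79). Lmx1b stood at rank 33 (0.57) and Maoa at rank 276 (0.25). Over the 288 SNI with brush nuclei, the r was 0.85 for Slc6a4, 0.75 for Slc18a2, 0.58 for Ddc, 0.56 for Maob, 0.46 for Lmx1b, 0.40 for Gch1 and 0.11 for Maoa. The 10 other genes most like Tph2 in the Hot water bath library were Stard13 (0.74), Nyap2 (0.70), Vwa5b1 (0.67), Tox (0.66), Mgll (0.65), Zbtb7c (0.65), Pde2a (0.64), Fryl (0.63), Smad3 (0.63) and Grip2 (0.61). In the SNI with brush library their r lay between 0.12 for Mgll and 0.39 for Vwa5b1. The nuclei of a library share its depth and its free RNA, so these values describe a pattern.

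The second rank belonged to 1700042O10Rik (r = 0.90 and, in the SNI with brush library, 0.69), an antisense gene at chr11:11868123-11885321 on the plus strand, inside Ddc, which was named after its values had been seen. It stood at 987 against 8.44 CPM in the SNI with brush library (6.87, 6.50 to 7.25) and 632 against 9.53 CPM in the Hot water bath library (6.05, 5.80 to 6.32). The sources used here do not say whether the counting kept the strands apart, so reads of Ddc and of this gene may not be separable. Slc18a2 overlaps the antisense gene Gm29261, Slc6a4 the antisense gene Gm12343, Lmx1b the transcript Gm38011 and Gch1 a pair of processed pseudogenes.

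Between the libraries, most members were lower over all SNI with brush nuclei. Within Tph2 nuclei the members' median ratio and the share of them called higher lay near the values over all genes. Over all nuclei, Tph2 had 27.7 CPM in the SNI with brush library and 116 CPM in the Hot water bath library, a log2 ratio of -2.06 (-2.24 to -1.89). Of the 8 members with at least 20 UMIs, 6 were at least 1.5-fold lower over all nuclei, where 8.36% of all genes were, and 0 were at least 1.5-fold higher, where 33.6% of all genes were. The members' median log2 ratio was -0.95, against 0.27 over all genes. Slc6a4, at 18.2 CPM in SNI with brush and 21.1 CPM in Hot water bath nuclei (-0.21, -0.47 to 0.04), and Gch1, at 9.91 CPM in SNI with brush and 8.57 CPM in Hot water bath nuclei (0.21, -0.16 to 0.58), were the 2 that did not pass. Without the hepatocyte-marker nuclei, the Gch1 log2 ratio over all nuclei was -0.82, past 1.5-fold lower, and the Maob ratio was -2.01 in place of -1.34.

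**Figure D5:**
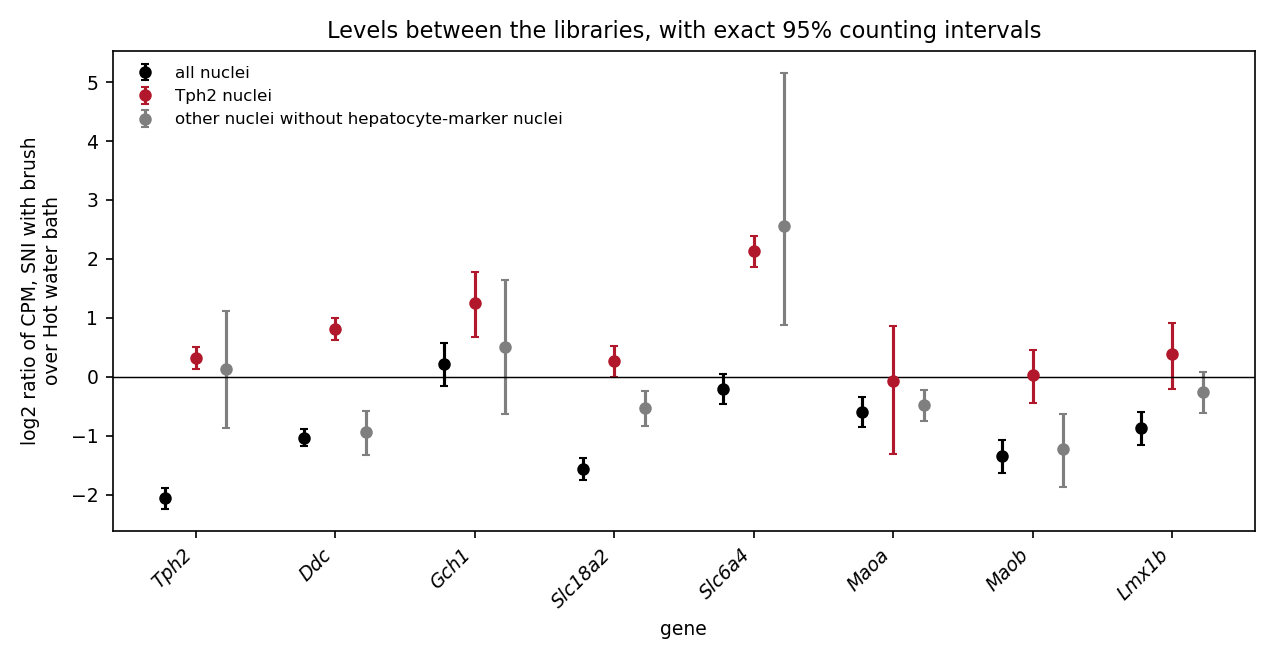
log2 ratio of CPM, SNI with brush over Hot water bath, for the 8 members with at least 20 UMIs, over all nuclei (black), Tph2 nuclei (red) and other nuclei without hepatocyte-marker nuclei (grey), with exact 95% counting intervals. Tph2 lies at -2.06 over all nuclei and 0.32 within Tph2 nuclei, and Slc6a4 at -0.21 and 2.13. Slc6a4 had fewer than 20 UMIs in the grey set.

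Within Tph2 nuclei, 4 against 31, 3 of 8 members were at least 1.5-fold higher, where 35.8% of all genes were, and 0 of 8 lower, where 15.8% were. The members' median log2 ratio there was 0.36, against 0.29 over all genes. Slc6a4 stood at 1125 CPM in SNI with brush Tph2 nuclei and 257 CPM in Hot water bath ones, a log2 ratio of 2.13 (1.87 to 2.39). Per nucleus it ranged from 5.72 to 20.6 UMIs per 10000 in the 4 SNI with brush nuclei, and 8 of the 31 Hot water bath nuclei reached the lowest of these, so the nuclei overlap. Gch1 stood at 221 CPM in SNI with brush and 93.8 CPM in Hot water bath Tph2 nuclei (1.25, 0.67 to 1.78). Ddc stood at 1700 CPM in SNI with brush and 968 CPM in Hot water bath Tph2 nuclei (0.81, 0.62 to 1.00), with 60.6% of the SNI with brush Ddc UMIs in 1 nucleus, and it no longer passed 1.5-fold with size factors (0.57) or with the mean of per-nucleus CPM (0.42). Tph2, Slc18a2, Maoa, Maob and Lmx1b lay between -0.07 and 0.39. Of the transmitter and lineage genes, Gad2 was lower, at 89.8 CPM in SNI with brush and 330 CPM in Hot water bath Tph2 nuclei (-1.83, -2.73 to -1.14), and Gata3 higher, at 168 CPM in SNI with brush and 38.3 CPM in Hot water bath Tph2 nuclei (2.14, 1.41 to 2.82).

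In the other nuclei, 2 of 8 members passed 1.5-fold upward in the SNI with brush library, against 33.3% of all genes, and 0 downward, against 8.06%. The 2 were Gch1 and Slc6a4. Without the hepatocyte-marker nuclei, 7 members had at least 20 UMIs, of which 0 were higher (29.8% of all genes) and 2 lower (8.2%). The lower ones were Ddc at 7.91 CPM in SNI with brush and 15.3 CPM in Hot water bath nuclei (-0.94, -1.32 to -0.58) and Maob at 2.83 CPM in SNI with brush and 6.66 CPM in Hot water bath nuclei (-1.22, -1.88 to -0.64). Slc6a4 then had fewer than 20 UMIs, 14 in SNI with brush and 3 in Hot water bath nuclei (2.55, 0.88 to 5.16). The number of mice behind each library is not known, so these differences cannot be told apart from differences between animals, dissections or sorts.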

How the data were processed

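The authors deposited raw UMI counts per gene and nucleus for both libraries, as whole numbers. The submitters' processing notes name mm10, Cell Ranger 5.0 and Seurat. The barcode lists hold 850 (SNI with brush) and 723 (Hot water bath) barcodes, of which 288 and 425 have counts; the sources used here do not give the rule for this filter. The genes and lists were chosen with earlier results of these data known.

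Counts were summed over nuclei and divided by their total for CPM, with exact Poisson intervals. Shares have Clopper-Pearson intervals. Ratios had 0.5 UMI added to both sums, with intervals exact conditional on the summed count. A count of 0 is limited by 3 counts. Intervals cover counting error within a library, and nuclei are not replicates. Thinning drew UMIs without replacement. Doublets were called with Scrublet (scanpy 1.11.5) and kept. Correlations use the log of 1 + UMIs per 10000, both within Tph2 nuclei and over all nuclei, and the log of a nucleus's total UMIs. Python 3.11.15, numpy 2.4.6, pandas 2.3.3, scipy 1.17.1 and matplotlib 3.10.9 were used. Code was tested on simulated counts.

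Members and transmitter genes were named whatever their value. Other named genes were the 15 highest and 10 lowest ratios in the Hot water bath library among genes with at least 100 UMIs there and UMIs in enough nuclei, with at most 25% of UMIs in 1 nucleus, and the 10 with the highest r with Tph2. Of the 10 lowest, 1 is not reported here. Gene models, mitochondrial, ribosomal protein and sex-linked marker genes were left out. From each other list, up to 4 members with at least 10 UMIs in Tph2 nuclei were named, and further list members given in the text were chosen after their values were seen. Gene positions come from GENCODE vM21 (mm10). Alternatives varied the Tph2 threshold, the nuclei compared, weighting, scaling, added UMIs, depth and doublets.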

Additional observations from a re-analysis of the deposited data

Results flagged for a closer look

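A pair of peptide genes had opposite ratios of Tph2 nuclei over other nuclei in the libraries. Tac1 had a log2 ratio of 2.81 (2.14 to 3.37) in the SNI with brush library, on 26 UMIs of which 22 lay in 1 of the 4 Tph2 nuclei, and -4.35 (-10.24 to -2.44) in the Hot water bath library, on 1 UMI in 31 nuclei. Sst had -1.72 (-3.49 to -0.63) in the SNI with brush library, on 5 UMIs in 2 of 4 nuclei, and 2.15 (1.81 to 2.48) in the Hot water bath library, on 104 UMIs in 23 of 31 nuclei. Sst stood at 109 CPM in the other SNI with brush nuclei and 17.6 CPM in the other Hot water bath nuclei. The difference between the libraries was not tested, since each is 1 pooled sample.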

How the results depend on the processing

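The 7 of 7 members called higher in Tph2 nuclei were 7 in both libraries under every alternative run (other thresholds for Tph2, other nuclei compared, weighting, scaling, added UMIs and doublets). Of 247 ratios of single genes within libraries under the alternatives, 235 kept their value within counting error and 12 moved; between libraries 134 of 152 did, 17 moved and 1 reversed. That was Ddc, SNI with brush over Hot water bath in other nuclei, at 0.43 with all of them and -0.94 without the hepatocyte-marker nuclei, which hold most of its UMIs there. Median members seen per Tph2 nucleus, 7 in the SNI with brush library and 6 in the Hot water bath library, was 2.5 and 2 with nuclei thinned to 1000 UMIs, 5.5 and 4 at 5000 and 6 and 5 at 10000, and 6 and 6 where 2 UMIs were asked of a gene. Between libraries, 1 member was lower in Tph2 nuclei with mean per-nucleus CPM, against 0. In other nuclei, 2 were lower with size factors and 2 without the hepatocyte-marker nuclei, against 0, and 5 were higher with mean CPM and 1 without the hepatocyte-marker nuclei, against 2. That 1 was Slc6a4, which had fewer than 20 UMIs once those nuclei were left out. Why the weighting and scaling moved these counts was not tested. Size factors, in place of total UMIs, lowered all log2 ratios between libraries by 0.26 over all nuclei and 0.24 in Tph2 nuclei. Alternatives with 20 or more Tph2 UMIs were chosen after seeing the data; they took the Slc6a4 ratio between libraries in Tph2 nuclei to 1.86, against 2.13 over all Tph2 nuclei. No paired analysis was possible because each treatment has 1 library. With 4 Tph2 nuclei in the SNI with brush library, a share of 0 or 100% there is compatible with a wide range.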
